A study of Mus musculus with 2 samples.

Results

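Newly made collagen is hydroxylated, folded, trimmed and crosslinked by a set of enzymes that work one after the other, and their transcripts were followed in interstitial cells of the infarcted mouse heart. The 10 genes were chosen by function: the prolyl 4-hydroxylase subunits P4ha1 and P4ha2, the lysyl hydroxylases Plod1 and Plod2, the collagen chaperone Serpinh1, the procollagen C-proteinase Bmp1, and the lysyl oxidases Lox, Loxl1, Loxl2 and Loxl3. They are 10 of the 15181 distinct genes held by the 22 tables used.

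Interstitial cells of the cardiac ventricle were sorted for viability and profiled by droplet single-cell RNA sequencing in 2 libraries, 1 per genotype. Adult mice of both groups had a myocardial infarction (MI) and then ate chow with 0.4 g/kg tamoxifen citrate, and the labels put collection at 6 days after the injury, while the study's methods name a later day. Both groups carried PostnMCM, a tamoxifen-inducible Cre recombinase driven from the Postn locus, and, per the study's methods, a Cre-dependent eGFP reporter at Rosa26. PostnMCM without floxed alleles was the control library. The other library, of the genotype Yapfl/fl;Wwtr1fl/+;PostnMCM, also had 2 floxed alleles of Yap1 and 1 floxed allele of Wwtr1, which encodes TAZ, and is called the floxed library here. Recombination is limited to cells that express Postn, and the labels do not give the number of animals behind a library. With no replicates in either group there is no test of genotype, no p-value and no error on any value, and every difference below describes these 2 libraries.

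The tables compare the libraries within 18 cell clusters and 4 fibroblast subclusters (0, 3, 4 and 5). The study also names fibroblast subclusters 1 and 2, which are not covered here. It describes subclusters 0, 2 and 4 as coming mainly from control hearts and subcluster 1 as coming mainly from floxed hearts. The fibroblast subcluster drawn mainly from floxed hearts is thus not among the values below. The value used throughout is the share of cells of a population in which a gene had a corrected count above 0, in percent, and a difference is the floxed share minus the control share in percentage points. A share says how many cells showed the transcript and not how much of it each held, and a gene that stands at 100% in both libraries may still differ in the amount per cell. The depth and the number of cells behind a share are unknown. The lowest share above 0 that any gene had was 0.7% in the control library and 3.1% in the floxed library in subcluster 0, 3.3% and 4.3% in subcluster 3, 2.5% and 10% in subcluster 4, and 4.3% and 4.8% in subcluster 5, so subcluster 4 of the floxed library carried the coarsest values.

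Neither targeted gene was lower throughout the floxed library. Yap1 had a share of 46.2% in the control and 56.2% in the floxed library in subcluster 0, 23.3% and 43.5% in subcluster 3, 57.5% and 40% in subcluster 4, and 30.4% and 47.6% in subcluster 5. Wwtr1 went from 81.4% to 90.6%, from 93.3% to 91.3%, from 80% to 60% and from 100% to 85.7% in the same order. Yap1 was thus higher in 3 subclusters and lower in 1, and Wwtr1 the reverse. Reads were counted near the 3′ end of transcripts, and whether they fell in the floxed exons was not tested. By immunostaining, the study reports clearly less nuclear Yap and Wwtr1 protein in eGFP-marked myofibroblasts of the floxed genotype. A share of cells with a transcript does not measure that protein. Postn, the driver of the Cre, was seen in 87% of control and 100% of floxed cells of subcluster 5 but in no more than 40% of cells of either library in the other subclusters, with 25.5% and 28.1% in subcluster 0, 40% and 13% in subcluster 3, and 10% and 20% in subcluster 4.

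The fibroblast label was checked against 8 markers. Col1a1, Col1a2, Col3a1 and Dcn were at 100% in every subcluster of both libraries, and Gsn was at 80% or above. Lum, a proteoglycan of the fibril surface, was at 100% in both libraries in subcluster 5 but between 26.7% and 47.8% in the others. Pdgfra, a growth factor receptor of fibroblasts, was at 38.6% in the control and 71.9% in the floxed library in subcluster 0, and between 66.7% and 87% elsewhere. Tcf21, a factor of resting cardiac fibroblasts, was at 2.1% and 0.0% in subcluster 0, 6.7% and 8.7% in subcluster 3, 35% and 20% in subcluster 4, and 43.5% and 81% in subcluster 5. Epicardial genes were also common in subclusters 0, 3 and 4, where Wt1 lay between 92.5% and 100%, whereas in subcluster 5 Wt1 was at 73.9% in the control and 14.3% in the floxed library. Over 6 epicardial and mesothelial markers the mean share was 76.2% in the control and 82.3% in the floxed library in subcluster 0. It was 72.8% and 63.8% in subcluster 3, 75% and 66.7% in subcluster 4, and 25.4% and 5.6% in subcluster 5. Cells of subclusters 0, 3 and 4 thus carried both fibroblast and epicardial or mesothelial markers. The study describes subcluster 0 as epicardial and rich in IGF binding proteins, 3 as proliferating, 4 as carrying matrifibrocyte markers, and 5 as secretory myofibroblasts.

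Collagen chains enter the endoplasmic reticulum, where prolyl 4-hydroxylase converts proline to hydroxyproline and so makes the triple helix stable at body temperature, and lysyl hydroxylases convert lysine to hydroxylysine, which fixes the kind of crosslink that can form later. HSP47, the product of Serpinh1, holds the folded procollagen until it leaves the reticulum, Bmp1 cuts off the C-terminal propeptide so that fibrils can assemble, and lysyl oxidases turn lysine and hydroxylysine into the aldehydes that join neighbouring molecules. In the healing infarct these steps set the strength and stiffness of the scar. The prolyl hydroxylase subunits are also well-known targets of hypoxia-inducible factor, while YAP and TAZ reach DNA through TEAD proteins.

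Promoters were searched for the letters of both factors, and those of P4ha1 and P4ha2 are shown because these paralogs went opposite ways between the libraries. The RefSeq promoter table, built on GRCm38.p6, held 4 of the 10 genes (P4ha1, P4ha2, Plod1 and Serpinh1), each from 250 bases before to 50 bases after the start. Exact matches placed the P4ha1 sequence at chr10:59158868-59159167 and that of P4ha2 at chr11:53991500-53991799 of GRCm39, both on the plus strand and both printed 5′ to 3′. Capitals mark ACGTG, the only form of the hypoxia response element core that was searched, on either strand (CACGT where it lies on the minus strand). The form GCGTG was not searched, so it is neither marked nor in the counts of cores below.
P4ha1 promoter: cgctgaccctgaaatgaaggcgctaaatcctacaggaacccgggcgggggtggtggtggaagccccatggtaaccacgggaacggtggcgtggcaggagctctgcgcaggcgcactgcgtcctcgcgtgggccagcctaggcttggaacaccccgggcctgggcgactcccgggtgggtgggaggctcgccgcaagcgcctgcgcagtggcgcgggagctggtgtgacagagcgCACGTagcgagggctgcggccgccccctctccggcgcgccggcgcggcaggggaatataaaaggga
P4ha2 promoter: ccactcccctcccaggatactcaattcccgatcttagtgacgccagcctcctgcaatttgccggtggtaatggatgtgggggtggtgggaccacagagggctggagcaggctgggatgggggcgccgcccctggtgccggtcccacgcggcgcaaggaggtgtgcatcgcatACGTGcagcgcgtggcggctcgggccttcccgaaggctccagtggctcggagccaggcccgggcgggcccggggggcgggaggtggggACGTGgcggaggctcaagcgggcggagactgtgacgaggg
P4ha1 held 1 core, first base at position -16 from the start, and P4ha2 held 2, at positions -78 and 10. Serpinh1 held 1 core, at position -171, and Plod1 held none. The core was present in 19.6% of all 32851 promoters of 300 bases. The TEAD motif GGAATG, searched on both strands and not overlapping the core, was in none of the 4 promoters and in 14.7% of all promoters. Positions are counted from the RefSeq start. For both P4ha1 and P4ha2 it lies inside the gene, downstream of the 5′ end that the GENCODE annotation gives, and it lies much further inside for P4ha2. A match of letters is a description and not a binding site.

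Across the 4 subclusters the 10 enzymes gave 40 pairs of shares, of which 14 were higher in the floxed library, 12 were lower and 14 were equal. Of the equal pairs, 12 stood at 100% in both libraries. All 10 genes had a mean share of at least 10% over both libraries in every subcluster, the limit for counting a gene as measured. With a limit of 20 points, 0 of the 40 values were higher in the floxed library and 3 were lower, namely Loxl3 in subcluster 4 and Plod1 and P4ha2 in subcluster 5. Of the 40 control shares 25 were above 80%, 9 of them in subcluster 5, and could not have been 20 points higher in the floxed library, so the count of 0 is limited by the scale. For comparison, the share of all measured genes that were at least 20 points higher was 2.44%, 4.38%, 13.3% and 11.0% for subclusters 0, 3, 4 and 5 in turn, and the share at least 20 points lower was 1.94%, 6.84%, 9.93% and 6.82% in the same order. The 1 of 10 members past the limit in subcluster 4 thus stands beside a background of 9.93%, and the 2 of 10 in subcluster 5 beside one of 6.82%. With a limit of 10 points, 3, 3, 1 and 0 of the 10 were higher in subclusters 0, 3, 4 and 5, beside 14.7%, 17.4%, 31.7% and 28.1% of measured genes, and 1, 1, 1 and 2 were lower, beside 12.9%, 21.9%, 22.9% and 19.6%. The values nearest to the limit were both from Plod1, at -20.3 points in subcluster 5, just past it, and at 19.6 points in subcluster 3, just short of it.

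**Figure D1:**
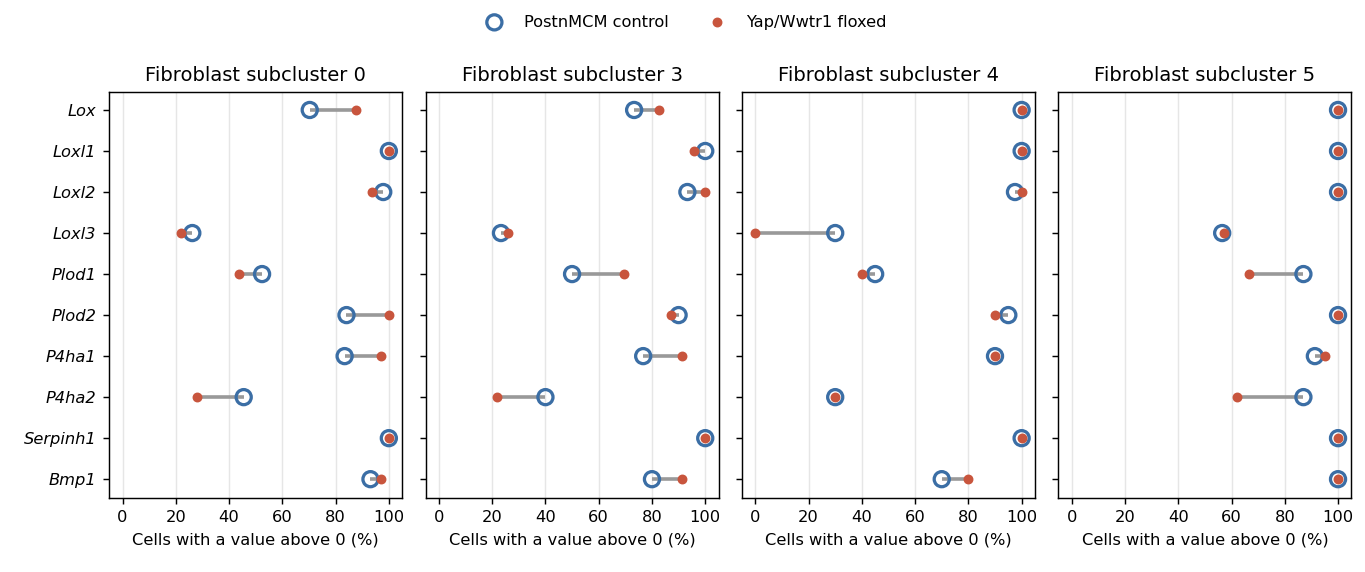
Share of cells with a value above 0 (x axis, percent) for the 10 collagen enzymes (y axis) in fibroblast subclusters 0, 3, 4 and 5. Open circles are the control library, filled points the floxed library, and a grey line joins each pair; Serpinh1 sits at 100% in all 8 values, while P4ha2 lies to the left of its control in subclusters 0, 3 and 5.

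The prolyl 4-hydroxylase subunits differed between the libraries in opposite directions. P4ha1 (chromosome 10, 59159092 to 59209126, plus strand), the alpha subunit found in most tissues, had shares of 83.4% in the control and 96.9% in the floxed library in subcluster 0, 76.7% and 91.3% in subcluster 3, 90% and 90% in subcluster 4, and 91.3% and 95.2% in subcluster 5. It was higher in the floxed library in 3 subclusters, by 13.5, 14.6 and 3.9 points, and equal in the other. P4ha2 (chromosome 11, 53981553 to 54022494, plus strand), the second alpha subunit, had shares of 45.5% and 28.1% in subcluster 0, 40% and 21.7% in subcluster 3, 30% and 30% in subcluster 4, and 87% and 61.9% in subcluster 5. Its differences were thus -17.4, -18.3 and -25.1 points in subclusters 0, 3 and 5, and it was equal in subcluster 4. P4hb, the beta subunit that both alpha subunits need, was at 98.6% in the control and 100% in the floxed library in subcluster 0 and at 100% in the other 6 values.

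Of the lysyl hydroxylases, Plod1 went both ways and Plod2 differed mainly in subcluster 0. Plod1 (chromosome 4, 147991574 to 148021356, minus strand), which acts on lysines within the helix, had shares of 52.4% in the control and 43.8% in the floxed library in subcluster 0, 50% and 69.6% in subcluster 3, 45% and 40% in subcluster 4, and 87% and 66.7% in subcluster 5. The differences were -8.6, 19.6, -5 and -20.3 points. Plod2 (chromosome 9, 92424119 to 92490494, plus strand), the enzyme for the telopeptide lysines that give the stable crosslinks of scar tissue, had shares of 84.1% and 100% in subcluster 0, 90% and 87% in subcluster 3, 95% and 90% in subcluster 4, and 100% in both libraries in subcluster 5. Its difference of 15.9 points in subcluster 0 brought it to 100%, and the others were between -5 and 0.0 points.

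Serpinh1 (chromosome 7, 98994220 to 99005076, minus strand) was seen in 100% of cells in all 4 subclusters of both libraries. The share is of cells with a value and is no measure of the level per cell, and in the same subclusters the neutrophil transcripts S100a8 and S100a9 were seen in 78.3% to 96.7% of control cells, while the other 4 neutrophil markers lay between 0.0% and 51.7%. Bmp1 (chromosome 14, 70711689 to 70758178, minus strand), which besides procollagen also cleaves the proform of lysyl oxidase, had shares of 93.1% in the control and 96.9% in the floxed library in subcluster 0, 80% and 91.3% in subcluster 3, 70% and 80% in subcluster 4, and 100% in both in subcluster 5. It was higher in the floxed library by 3.8, 11.3 and 10 points in subclusters 0, 3 and 4 and equal in subcluster 5.

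Among the lysyl oxidases, Lox was higher in the floxed library in 2 subclusters and equal in the other 2, Loxl1 and Loxl2 were above 90% throughout, and Loxl3 had the lowest shares. Lox (chromosome 18, 52649136 to 52663110, minus strand), the founding member of the family, had shares of 70.3% in the control and 87.5% in the floxed library in subcluster 0, a difference of 17.2 points, and of 73.3% and 82.6% in subcluster 3, a difference of 9.3 points. It was at 100% in both libraries in subclusters 4 and 5. Loxl1 (chromosome 9, 58195014 to 58220495, minus strand), which crosslinks elastin, was below 100% only in the floxed cells of subcluster 3, at 95.7%. Loxl2 (chromosome 14, 69846209 to 69933283, plus strand) lay between 93.3% and 100% in all 8 values, with differences of -4.1, 6.7, 2.5 and 0.0 points.

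Loxl3 (chromosome 6, 83011152 to 83029543, plus strand) had shares of 26.2% in the control and 21.9% in the floxed library in subcluster 0, 23.3% and 26.1% in subcluster 3, 30% and 0.0% in subcluster 4, and 56.5% and 57.1% in subcluster 5. The difference of -30 points in subcluster 4 was the widest of the 40, and it stands in the population where the lowest share above 0 in the floxed library was 10%. In the other 3 subclusters Loxl3 differed by no more than 4.3 points.

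**Figure D2:**
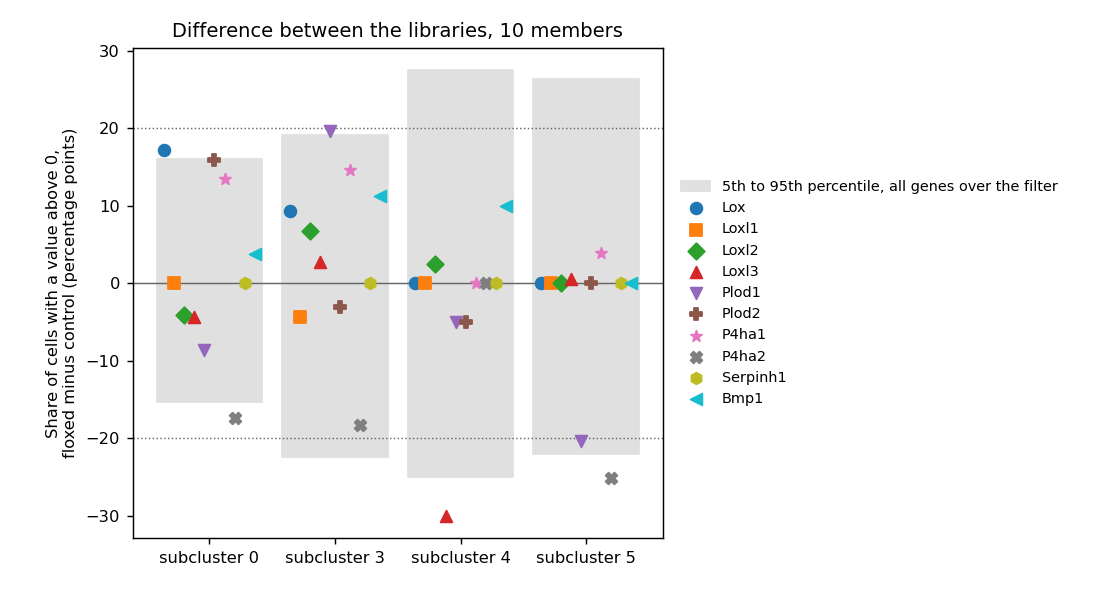
Floxed minus control difference in the share of cells with a value above 0 (y axis, percentage points) for each of the 10 enzymes in the 4 fibroblast subclusters (x axis). Grey boxes span the 5th to the 95th percentile of all measured genes and dotted lines mark 20 points; P4ha2 falls below the box in subclusters 0 and 5, Loxl3 below it in subcluster 4, and Lox just above it in subcluster 0.

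As a group the enzymes had a median difference of 0.00 points in subclusters 0, 4 and 5 and of 4.75 points in subcluster 3. The means were 1.60, 3.87, -2.75 and -4.09 points in subclusters 0, 3, 4 and 5. In subcluster 5, 6 of the 10 stood at 100% in both libraries, which fixes the median there near 0. The medians of all measured genes were 0.10, -0.20, 0.00 and 1.30 points in subclusters 0, 3, 4 and 5. In subcluster 0, where the middle 90% of measured genes ran from -15.3 to 16 points, Lox at 17.2 points and P4ha2 at -17.4 points lay outside that range. Loxl3 at -30 points lay outside the range of -25 to 27.5 points in subcluster 4, and P4ha2 at -25.1 points outside that of -22 to 26.3 points in subcluster 5. No member lay outside the range of -22.4 to 19.1 points in subcluster 3 except Plod1, at 19.6 points.

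Within each library the subclusters differed as well. In the control library subcluster 5, where Postn was most often seen, had the highest share alone for 7 of the 10 enzymes and was tied for it, at 100%, for Lox, Loxl1 and Serpinh1. Of the 9137 genes measured in all 4 subclusters, 20.2% were highest in subcluster 5 alone and 26.9% were highest or tied there in that library. P4ha2 was 41.5 points above the next subcluster there, Plod1 34.6 points and Loxl3 26.5 points. The leads were narrower for Bmp1 (6.9 points), Plod2 (5), Loxl2 (2.1) and P4ha1 (1.3). Those of Loxl2 and P4ha1 were smaller than the lowest share above 0 of that population, 4.3%. In the floxed library subcluster 5 was highest alone for 3 of the 10 enzymes and highest or tied for 8, against 20.7% and 28.1% of all measured genes. P4ha2 and Loxl3 were still 31.9 and 31 points above the next subcluster, but Plod1 was 2.9 points below subcluster 3 and P4ha1 1.7 points below subcluster 0. Loxl2 and Plod2, highest alone in the control library, were tied with another subcluster at 100% in the floxed library. The subclusters were defined on all genes of the same cells, so these contrasts describe them and test nothing.

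**Figure D3:**
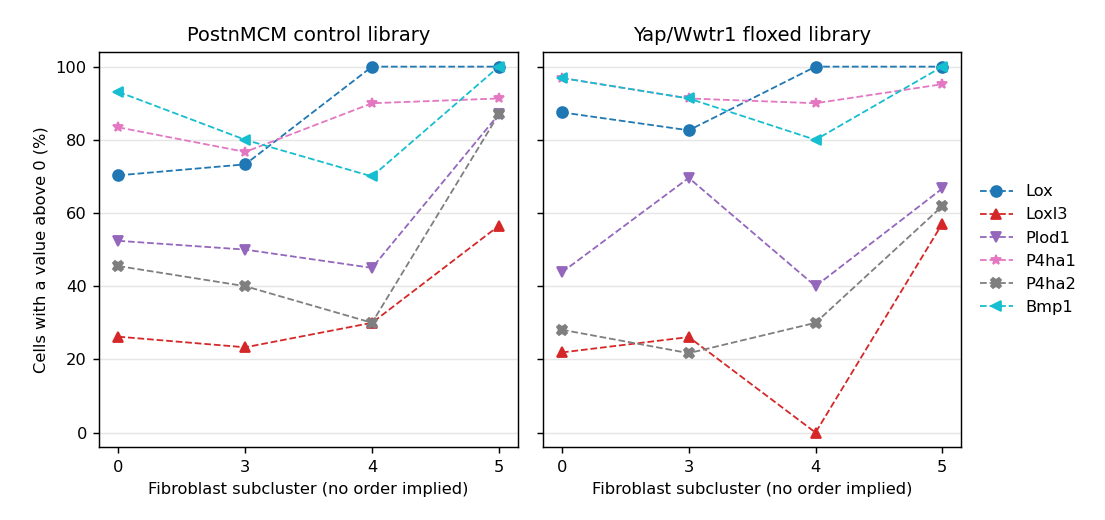
Share of cells with a value above 0 (y axis, percent) in the control library (left) and the floxed library (right) for 6 of the enzymes, by fibroblast subcluster (x axis, with no order implied by the joining lines). P4ha2 and Loxl3 are highest in subcluster 5 in both libraries, whereas Plod1 is highest there in the control library and in subcluster 3 in the floxed library.

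Markers of other cell types, and the epicardial and mesothelial markers, also differed between the libraries in these fibroblasts. The 6 neutrophil markers had a summed share of 306.9 points in the control and 131.2 points in the floxed library in subcluster 0, 286.8 and 156.5 in subcluster 3, 250 and 140 in subcluster 4, and 217.4 and 147.6 in subcluster 5. The 7 macrophage markers went from 364.9 to 218.7, from 336.7 to 265, from 357.5 to 280 and from 278.2 to 200 points. In subcluster 5 the 6 epicardial markers summed to 152.1 points in the control and 33.4 points in the floxed library, with 6 of 6 lower and Msln and Krt8 listed at 0 in the floxed library, beside the lower shares of P4ha2 and Plod1. In subclusters 0, 3 and 4 the same markers summed to between 382.6 and 493.8 points. The 7 cardiomyocyte markers summed to 28.2 and 3.1 points in subcluster 0, with 7 of 7 lower, and to 39.9 and 4.3, 42.5 and 40, and 21.6 and 14.4 points in subclusters 3, 4 and 5. The 4 B cell markers found summed to no more than 21.6 points anywhere. The 5 T cell markers found had 30.4 to 46.8 points in the control and 50 to 108.5 points in the floxed library, and the 5 endothelial markers found 17.2 to 80 points. The 6 markers of smooth muscle cells and pericytes went from 24.3 to 62.5 points in subcluster 0, where Lox and Plod2 were higher, and stood at 33.4 and 34.6, 37.5 and 40, and 78.2 and 76.2 points in the others. The mean share over all genes lay between 32.9% and 37.2% in the control and between 34.4% and 36.5% in the floxed library. The part of these markers in the differences of the enzymes was not tested.

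Other genes of collagen maturation also went both ways. Of 28 such genes, 27 were in the tables, and their median differences were 2.10, 0.00, 0.00 and -0.50 points in subclusters 0, 3, 4 and 5. At least 20 points higher were 2 genes in subcluster 0 (P4ha3 and P3h3), none in subcluster 3, 3 in subcluster 4 (Adamts14, Sec23a and Creb3l1) and 2 in subcluster 5 (Pcolce2 and Adamts3), while none, 1 (Plod3), 2 (Plod3 and P3h3) and 2 (P3h1 and P3h4) were at least 20 points lower. The genes of this list that counted as measured numbered 23, 23, 22 and 25, and the shares of all measured genes past the same limit were those given above (2.44%, 4.38%, 13.3% and 11.0% higher, 1.94%, 6.84%, 9.93% and 6.82% lower). Plod3, the lysyl hydroxylase that also adds sugars to hydroxylysine, was lower in all 4 subclusters, from 81.4% to 65.6%, from 86.7% to 65.2%, from 87.5% to 50% and from 91.3% to 76.2%. P4ha3, the least studied of the prolyl hydroxylase subunits, had control and floxed shares of 13.8% and 37.5%, 30% and 21.7%, 15% and 20%, and 69.6% and 71.4% in subclusters 0, 3, 4 and 5. Pcolce2, an enhancer of the C-proteinase, was seen mainly in subcluster 5, in 52.2% of control and 85.7% of floxed cells. Adamts14, a procollagen N-proteinase, and Sec23a, a coat protein of the vesicles that carry procollagen, were each 32.5 points higher in subcluster 4, from 17.5% to 50% and from 67.5% to 100%. P3h1, a prolyl 3-hydroxylase, was at 71.7% and 87.5% in subcluster 0 and at 87% and 66.7% in subcluster 5. Crtap, its partner, lay between 90.5% and 100% throughout.

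Of the substrates, 10 of 11 fibrillar collagen genes were in the tables. Between 3 and 5 of them stood at 100% in both libraries in each subcluster, and their median difference was 0.50 points in subcluster 0 and 0.00 in the others. Col5a3 was the most variable: its control and floxed shares were 40% and 59.4%, 30% and 52.2%, 30% and 70%, and 69.6% and 42.9% in subclusters 0, 3, 4 and 5. Col24a1 was 25 points higher in subcluster 4, from 15% to 40%. Col11a1 and Col27a1 stayed within 20 points in all 4 subclusters. The 11 partners of the crosslinked fibre are the matrix proteins that the lysyl oxidases join or that bind to the fibre. All 11 were measured, with a median difference of 0.00 points in every subcluster. In subcluster 3, 1 was at least 20 points higher and 2 were lower, beside 4.38% and 6.84% of all measured genes. Lum was 21.1 points higher there, from 26.7% to 47.8%, while elastin (Eln) went from 96.7% to 73.9% and Postn from 40% to 13%. In subcluster 4, 1 was lower, beside 9.93% of all measured genes. It was Efemp2, which brings pro-lysyl oxidase to elastic fibres, and it went from 100% to 80%. None was past the limit in subclusters 0 and 5.

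**Figure D4:**
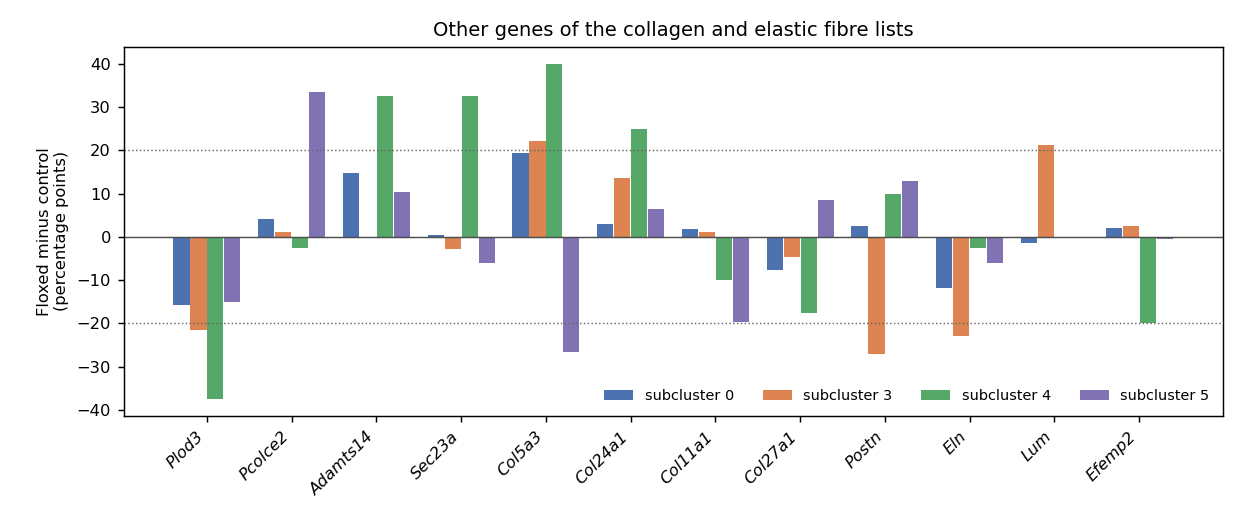
Floxed minus control difference in the share of cells with a value above 0 (y axis, percentage points) in subclusters 0, 3, 4 and 5 (bar colours) for the 4 genes with the widest difference in each of 3 lists: other collagen maturation genes, fibrillar collagens and crosslinked fibre partners. Dotted lines mark 20 points; Plod3 is below 0 in all 4 subclusters and Col5a3 is above 0 in 3 and below 0 in subcluster 5.

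Hypoxia response genes were read beside P4ha1 and P4ha2. Over all 16 genes of this list the median difference was 0.35, -2.05, 0.00 and 0.00 points in subclusters 0, 3, 4 and 5. In subcluster 5, where 14 of them were measured, 6 of the 16 had a higher and 7 a lower share in the floxed library, and 4 were at least 20 points lower, beside 6.82% of all measured genes. The glucose transporter Slc2a1 went from 47.8% to 9.5%, Ndrg1 from 47.8% to 14.3%, Ero1a from 65.2% to 38.1% and the growth factor Vegfa from 56.5% to 33.3%. There 1 gene, Adm, was at least 20 points higher, beside 11.0% of all measured genes. In subcluster 4, where all 16 were measured, Vegfa and Ndrg1 were 22.5 and 30 points higher and Ankrd37 was past the limit in the other direction. These 2 higher and 1 lower of 16 stand beside 13.3% and 9.93% of all measured genes, and are near those shares. Subcluster 0 had 1 of 13 measured genes past it, Egln3, which was higher, beside 2.44% of all measured genes, and subcluster 3 had none. In subcluster 5 P4ha1 was at 91.3% and 95.2% and P4ha2 at 87% and 61.9%.

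The cluster tables hold only genes that passed the authors' limits of 0.25 in size of log2 fold change and 25% of cells in either library, so a gene that is not listed has no value there. Across the 18 cluster tables there were 7 listings of an enzyme, in 4 tables, of which 4 had a higher, 2 a lower and 1 an equal share in the floxed library. In the fibroblast cluster (cluster 5) the share went from 65.1% to 78.1% for Lox, from 70.8% to 82.9% for Plod2 and from 75.5% to 90.9% for Bmp1, while Serpinh1 was listed at 100% in both libraries. Of the 605 genes listed there, 44.0% had a higher share in the floxed library. The neutrophil genes S100a8 and S100a9 were listed in the same fibroblast table at 32.6% and 5.9% and at 49.7% and 9.1%. Loxl1, Loxl2, Loxl3, Plod1 and P4ha2 were listed in none of the 18 tables. The study describes the fibroblast subclusters as unequally drawn from the genotypes, so a share over the whole of cluster 5 is taken over a different mixture of subclusters in each library, and the part of that mixture was not tested. These cluster shares come from another normalization than those of the subclusters, and levels are not compared between them.

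P4ha1 was also listed in clusters 0 and 13, both named macrophages or monocytes by the study, in opposite directions. In cluster 0 its share was 70.9% in the control and 60.7% in the floxed library, and in cluster 13 it was 38.9% and 49.3%. Of all genes listed, 34.5% had a lower share in the floxed library in cluster 0 and 55.7% a higher share in cluster 13. The macrophage gene Lyz2 was at 100% in both libraries in both clusters, Cd68 and Adgre1 were listed in cluster 0 at 93.1% and 88.6% and at 77.4% and 89.9%, and Fcgr1 in cluster 13 at 80% and 90.1%.

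Most listed hypoxia response genes had differences of the same sign as P4ha1 in each cluster, with Ldha of cluster 0 the exception. In cluster 0, 7 of the 16 were listed and 6 had a lower share in the floxed library: Slc2a1 went from 35.2% to 17%, Ankrd37 from 34.6% to 18%, the glycolytic Pgk1 from 89.7% to 75.6% and Bnip3 from 37.5% to 25.4%, while Ldha was at 96.3% and 96.4%. In cluster 13, 7 were listed and all 7 had a higher share: Slc2a1 went from 21.1% to 53.5%, Vegfa from 6.3% to 32.4%, Hif1a from 73.7% to 93% and Ankrd37 from 15.8% to 29.6%. Among neutrophil transcripts, S100a8 was at 68.3% and 34.3% in cluster 0 and at 51.6% and 50.7% in cluster 13, and S100a9 at 54.8% and 20.3% and at 56.8% and 29.6%. Their part in these differences was not tested.

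**Figure D5:**
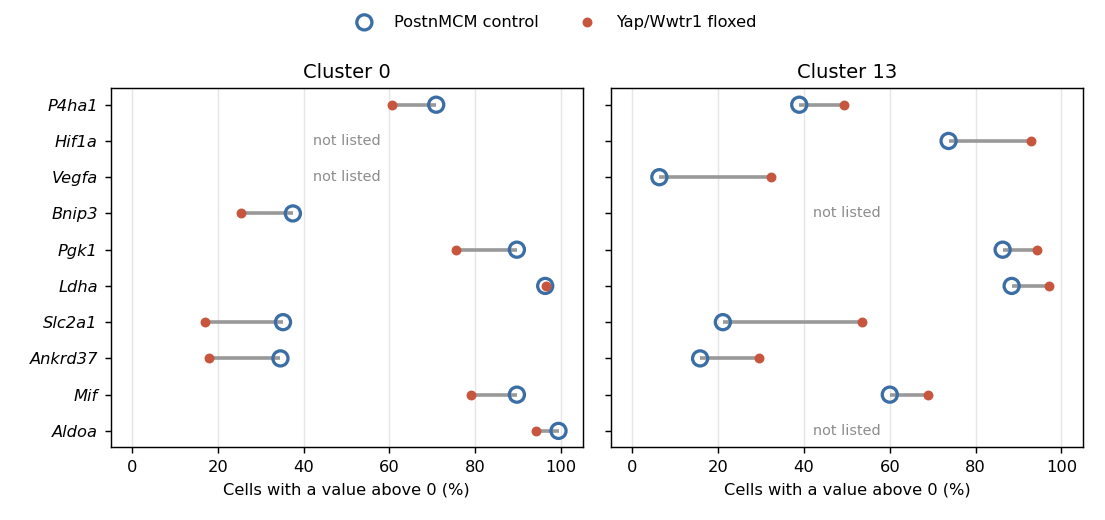
Share of cells with a value above 0 (x axis, percent) for P4ha1 and the listed hypoxia response genes (y axis) in clusters 0 and 13. Open circles are the control library and filled points the floxed library, and genes that a table does not hold are marked as not listed; most pairs point to lower floxed shares in cluster 0 and all point to higher ones in cluster 13.

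Serpinh1 had its only other listing in cluster 18, a neutrophil cluster, at 27.3% in the control and 5.9% in the floxed library. The lowest share above 0 in that table was 9.1% and 5.9%, so the floxed value stood at the lowest step. Fibroblast transcripts were listed beside it, with Col3a1 at 36.4% and 5.9%, Sparc at 36.4% and 0.0%, and Col5a1, which went the other way, at 9.1% and 29.4%. There 59.7% of the 1426 genes listed had a lower share in the floxed library. Of the neutrophil markers, the receptor Cxcr2 was at 81.8% and 70.6% and Retnlg at 63.6% and 70.6%. Neutrophils are not known as a source of fibrillar collagen, and the part of RNA from other cells in these shares was not tested.

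Likeness of pattern was measured as the mean absolute difference of shares over the 8 values (4 subclusters in 2 libraries) among 10979 genes with a mean share of at least 10%. The genes most like Lox were Igf1 (3.34 points), Sec24d (4.39), Pmepa1 (5.45), Adamts2 (5.80), a procollagen N-proteinase, and Axl (5.89). The genes most like Plod2 were Ryk (2.51 points), Pmepa1 (2.53), Fkbp9 (2.72), Eva1b (3.12) and Copz2 (3.16). For Serpinh1, 304 genes had exactly the same pattern, all at 100%, among them Actb and Aldoa. The libraries and cells are shared by all points, and genes of any kind near the ceiling come out as alike.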

How the data were processed

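Interstitial cells of 2 libraries, 1 per genotype, were captured with 10x Chromium V3.1 chemistry. The submitters' processing notes name Cell Ranger 6.1.1, Seurat and the build GRCm39. Per the study's methods the authors combined both libraries, removed low-quality cells and rarely detected genes, clustered SCTransform-normalised counts after regression on the mitochondrial fraction, and ran these steps a second time on the fibroblasts alone. No doublet caller is named, and doublets may remain. The deposited fraction columns give, per library, the cells of a population with a corrected count above 0, and were multiplied to percent. The deposited average log2 fold changes, p-values and adjusted p-values hold the authors' own comparisons and were not used. The tables give no counts or cell numbers, so the depth behind a share is unknown. Cluster 16 and subclusters 1 and 2 were not analysed here.

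Shares were subtracted (floxed minus control) with Python 3.11.15, pandas 2.3.3 and numpy 2.4.6. A gene counted as measured at a mean share of at least 10%, and as past the limit at 20 points. Alternatives used limits of 10 and 30 points, a mean share of 25%, no filter, and a log2 ratio of shares after adding 5 points with a limit of 1. All 10 enzymes are named. Of each other list, the 4 genes with the widest difference in any subcluster are named, together with those past the limit and partners of a named enzyme, which were added after their values were seen. Likeness is given for Lox, Plod2 and Serpinh1, with the 5 nearest genes. The enzymes and lists were chosen with earlier results of these data known. Counting of differences was tested on simulated shares.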

Additional observations from a re-analysis of the deposited data

Results flagged for a closer look

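Plod1 differed in opposite directions between fibroblast subclusters. Its share was higher in the floxed library in subcluster 3 (50% in the control, 69.6% in the floxed library) and lower in subcluster 5 (87% and 66.7%), so that the differences lay 39.9 points apart. It was singled out because both differences were at least 15 points in size, a limit set after the values were seen. With 1 library per genotype the difference was not tested.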

How the results depend on the processing

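No paired analysis was possible because neither genotype had more than 1 library and no replicate numbers exist. For the same reason no replicate could be left out. Of 178 recomputed values under other settings, 170 were labelled the same and 8 moved, and those that moved were all counts of enzymes past a limit. The label has no stated tolerance. It covers the enzymes of subcluster 5, with a median of 0.00 points and a mean of -4.09 points, and log2 ratios set against points. A count of 0 could not rise under a higher limit or a stricter filter. The 170 is thus no measure of how stable the values are. No value past the limit changed direction. Centring on the median of all measured genes turned 1 of the 40 single differences, Loxl3 in subcluster 5, from 0.6 to -0.7 points, and gave a sign to 9 that were 0. With a limit of 10 points, the enzymes past it and higher in the floxed library numbered 3, 3, 1 and 0 in subclusters 0, 3, 4 and 5, and those lower numbered 1, 1, 1 and 2, beside the shares of all measured genes given with these counts above. With a limit of 30 points, 0 were lower in subcluster 5. A mean share of at least 25% left 0 lower in subcluster 4, because Loxl3 was no longer counted as measured. By the log2 ratio of shares 0 were lower in subcluster 5, where the control shares of P4ha2 and Plod1 were high. Depth and cell numbers are unknown, and 12 of the 40 pairs of shares were at 100% in both libraries.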

Other observations

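Other collagen-modifying genes were listed in the macrophage clusters. Colgalt1, which adds galactose to hydroxylysine, had a share of 52% in the control and 82.5% in the floxed library in cluster 0, and was also higher in the floxed library in clusters 3, 11 and 12. Plod3, which was lower in all 4 fibroblast subclusters, was listed in cluster 13 at 76.8% and 56.3% and in cluster 12, also named macrophages or monocytes, at 34.4% and 45.6%. P4hb, the beta subunit of prolyl 4-hydroxylase and also a protein disulfide isomerase, went from 85.3% to 93% in cluster 13.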
